A study of Mus musculus with 16 samples.

Results

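Loss of cholesterol 25-hydroxylase was compared within tau transgenic mice, in 8 of the 16 RNA sequencing libraries of the series: 4 from tau transgenic mice with intact Ch25h (T, replicates 2, 3, 4 and 5) and 4 from tau transgenic mice that also carry the Ch25h knockout (TCKO, replicates 2, 3, 4 and 5). The libraries were taken by their genotype labels, not by any measured value. Both groups carry the PS19 transgene, human 1N4R MAPT with the P301S mutation of familial frontotemporal dementia, expressed from the PrP (prion protein) promoter; that promoter drives it mainly in neurons. TCKO came from a cross of PS19 mice with Ch25h knockout mice, so the knockout is not limited to a cell type by its label. The matching groups without the transgene, wild type (WT) and Ch25h knockout (CKO), each with replicates 1, 2, 4 and 5, give the same comparison without the transgene. They also entered the fit of all 16 libraries, so they help set the spread behind each test of TCKO against T, and WT is the zero of the list scores. All mice were female and 40 weeks old by one label and 9.5 months by another. They were perfused with PBS, and the RNA is from the right hippocampus. The labels number the replicates but do not say that each library is a separate mouse, so p-values describe the spread between these libraries.

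Ch25h encodes the enzyme that adds a hydroxyl group to carbon 25 of cholesterol. The product, 25-hydroxycholesterol, is an oxysterol made by macrophages and microglia, and Ch25h itself is induced by interferon and by Toll-like receptor signals. Inside the cell the oxysterol binds INSIG proteins and holds back SREBP2, the transcription factor of cholesterol synthesis, and it activates the liver X receptors (LXR), which switch on sterol efflux genes such as Abca1. A further product made from it by Cyp7b1 attracts leukocytes through the receptor GPR183. In tauopathy models microglia leave their resting state, express lipid handling, phagocytic and interferon-stimulated genes, and astrocytes become reactive.

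Many interferon-stimulated genes carry a short promoter sequence, the interferon-stimulated response element, which is bound by complexes of STAT and IRF transcription factors. Promoter stretches of 5 such genes are shown with 1 stretch of Hmgcs1, a gene of cholesterol synthesis, because genes of these lists changed in opposite directions. They are RefSeq sequences on GRCm38.p6, written 5′ to 3′ on the strand of the gene, and capitals mark 1 copy of the motif in each (GAAANNGAAA or its reverse complement in the first 5, TCACNCCAC of the sterol response element in the last). Further copies stay in lower case in the stretches of Isg15, Ifit1 and Irgm1. Isg15 is at chr4:156200845-156200914 (minus strand), Ifit1 at chr19:34640774-34640843 (plus), Ifit3 at chr19:34583377-34583446 (plus), Rsad2 at chr12:26456533-26456602 (minus), Irgm1 at chr11:48871421-48871480 (minus) and Hmgcs1 at chr13:119690184-119690252 (plus).
Isg15: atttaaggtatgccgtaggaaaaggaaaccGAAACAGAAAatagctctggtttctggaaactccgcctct
Ifit1: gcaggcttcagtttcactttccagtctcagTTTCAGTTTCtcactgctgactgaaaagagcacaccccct
Ifit3: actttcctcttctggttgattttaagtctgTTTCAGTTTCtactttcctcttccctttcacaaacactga
Rsad2: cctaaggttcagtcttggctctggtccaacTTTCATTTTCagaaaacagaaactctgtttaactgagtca
Irgm1: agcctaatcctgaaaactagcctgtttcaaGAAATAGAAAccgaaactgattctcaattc
Hmgcs1: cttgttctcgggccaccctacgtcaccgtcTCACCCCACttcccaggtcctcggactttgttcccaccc

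On both strands of a window from 250 bases before to 50 bases after the start, GAAANNGAAA was found in 14 of the 21 interferon effector genes that have a RefSeq promoter (66.7%) and in 3.99% of all 27025 genes with one. It was found in 1 of 14 genes of interferon receptors and signal transducers and in 3 of 10 phagocyte genes. Searched on the strand of the gene alone, the motif was in 7 of the 21 effector genes and in 2.06% of all genes. The sterol response element TCACNCCAC was in 1 of 17 cholesterol synthesis and uptake genes, against 1.44% of all genes, and the PU.1 motif GAGGAAGT was in 1 of 10 phagocyte genes, against 3.69% of all genes, on both strands. The Ch25h window held none of these 3 motifs. Adjacent or overlapping copies were counted once per gene, and a match describes letters in the window, not a bound site.

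The deposited totals ran from 26247257 to 32295174 reads in T and from 24057164 to 31359240 in TCKO. That difference did not pass an exact two-sided permutation test (p = 0.0857, smallest possible 0.0286). Genes with at least 5 reads numbered 19800 to 20100 in T and 18400 to 19600 in TCKO, with no overlap (exact permutation p = 0.0286). The mitochondrial share of reads was 8.6 ± 0.352% for T and 7.72 ± 0.172% for TCKO (SD, n = 4 each), with no overlap between the libraries (exact permutation p = 0.0286). None of the 13 mitochondrially encoded genes passed the test on its own. All 15 marker genes of hippocampal subfield neurons passed the filter on low counts. All 10 marker genes of thalamus and striatum and all 15 of choroid plexus passed it too, so the filter does not tell these tissues apart. Choroid plexus RNA stood apart in T replicate 4 and in WT replicate 1, called the choroid-rich libraries here. On the scale of mean log2 CPM relative to WT its score was 3.56 and 3.44 there and between -2.28 and 0.67 in the other libraries. None of its 15 genes passed the test between TCKO and T, although all had negative log2 fold changes (median -1.99, from -4.12 to -0.66). CPM are counts per 1e6 reads after TMM scaling, and values per library are given in the order of replicates 2, 3, 4 and 5 throughout.

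Ch25h (ENSMUSG00000050370, GRCm38 chromosome 19, 34473778 to 34475164, minus strand) was read 300, 149, 154 and 133 times in T and 0, 1, 1 and 0 times in TCKO. Every TCKO library was thus at or next to 0, and every T library held over 100 reads. The ratio of the pooled reads, 736 against 2, was 324 after scaling by library totals (exact 95% counting interval 89.5 to 2683, counting error only). Mapt, the mouse tau gene, was at 712, 869, 665 and 830 CPM in T and at 1140, 812, 943 and 1050 CPM in TCKO, where replicate 3 lay within the T range. Its rise of 0.36 ± 0.10 (log2 fold change ± SE, adjusted p = 0.0321) lost its call without any one of T replicates 2 or 4, TCKO replicates 2 or 5 or CKO replicate 1 (adjusted p from 0.0503 to 0.107). It also failed in the fit of the 8 libraries alone (0.166) and with the choroid-rich libraries left out (0.146). Prnp, the gene whose promoter drives the transgene, was at 1840, 2050, 1590 and 2160 CPM in T and 2470, 1770, 2310 and 2310 CPM in TCKO, with a log2 fold change of 0.21 ± 0.13 (adjusted p = 0.287). In WT, Mapt was at 347 ± 14.5 CPM and Prnp at 846 ± 85.6 CPM. Whether reads of the transgene were counted at either gene was not tested.

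Across the 18565 genes tested with edgeR's quasi-likelihood test, 2388 changed between TCKO and T, which is 12.9% of all genes. Of these 1495 were lower in TCKO (8.05%) and 893 were higher (4.81%). The falls were the larger changes: 924 of them and 58 of the rises were at least 2-fold, and the median log2 fold change was -1.23 among the falls and 0.49 among the rises. The genes that fell had lower levels in T, with a median of 15.9 CPM against 49.2 CPM for those that rose. Protein-coding genes made up 1412 of the falls and 858 of the rises. The 4 T and 4 TCKO libraries did not overlap for 2745 genes (14.8%), 1865 of them among the 2388. The count of changed genes fell to 1294 without T replicate 2 and to 1467 without TCKO replicate 5. The rises numbered 282, 463, 516 and 1483 without T replicates 2, 3, 4 and 5 in turn and 488 and 428 without TCKO replicates 2 and 5, whereas the falls stayed between 1012 and 1795 over every library left out.

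**Figure D1:**
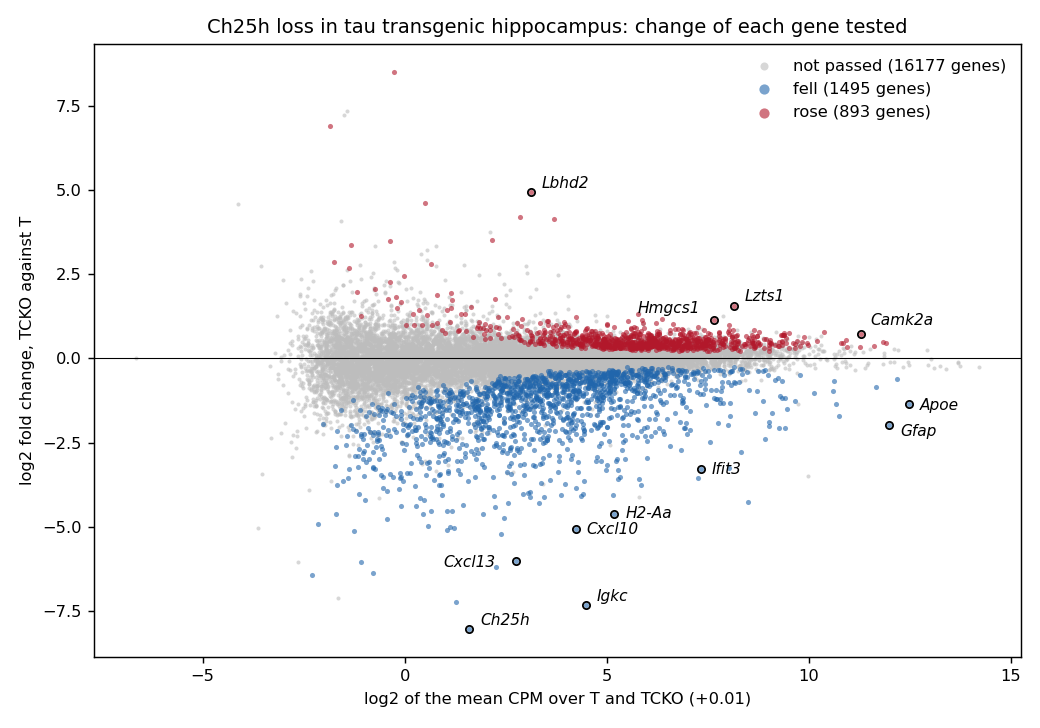
Log2 fold change in TCKO against T (vertical axis) plotted against the log2 of the mean CPM over both groups (horizontal axis) for the 18565 genes tested, with blue for the 1495 that fell, red for the 893 that rose and grey for the rest. More of the falls (924) than of the rises (58) were at least 2-fold. The falls run from the deleted Ch25h and the immunoglobulin gene Igkc down at the lower edge to the abundant Apoe and Gfap on the right. Over all genes tested, called or not, values ran from -8.03 to 8.51.

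The same loss of Ch25h in mice without the transgene changed 2 genes at the same threshold (0.0108%), Ch25h itself (-4.53) and Golga7b (-1.73). Golga7b encodes an accessory protein of palmitoylation enzymes and lies on the same chromosome, 7.784 Mb from Ch25h. By edgeR 2098 of the 18565 genes had an unadjusted p below 0.05 in that comparison, which is a share larger than 0.05. The 2 calls therefore do not show that the other genes were unchanged. DESeq2 called 110 and limma voom 1. Without WT replicate 1 the count was 7, 1 without CKO replicate 2, and 0 without any one of CKO replicates 1, 4 or 5 or WT replicate 5. The comparison shares no library with that of TCKO and T. Its CKO libraries were shallower, with totals from 15064258 to 26417485 reads, against 28878584 to 34348225 in WT. With reads thinned to the smallest library, 1 gene passed in CKO against WT and 2156 passed in TCKO against T. Tested as an interaction, the effect of the knockout differed with the transgene for 584 genes (3.15%), 455 of them with the more negative effect in transgenic mice and 129 with the more positive, and 541 of the 584 had also changed in TCKO against T. The interaction count was 375, 349 and 308 without CKO replicates 1, 2 and 4, 298, 334 and 1266 without T replicates 2, 3 and 5, 351 without TCKO replicate 5 and 334 without WT replicate 5.

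Interferon ligands were nearly unread: none of the 11 listed genes passed the filter. Ifnb1, interferon beta, had 11 reads over the 4 T libraries and 0 over TCKO, and Ifng had 4 and 3. Of 15 receptors and signal transducers, 10 fell and 0 rose, with a median log2 fold change of -0.88 against 0.02 over all genes. Beside each list count here and below stand the shares over all genes. These were 8.05% lower, 4.81% higher, 14.8% not overlapping and 3.15% with an interaction. The 5 that did not pass were Ifnar1 (-0.08), Ifngr2 (0.19) and the receptor kinases Jak1 (0.06), Jak2 (-0.30) and Tyk2 (-0.19). Irf7, the master factor of the type I interferon response, was at 33.9, 50.4, 22.3 and 36.8 CPM in T and 1.95, 6.72, 2.41 and 2.69 CPM in TCKO. The highest TCKO library, replicate 3, was still below the lowest T library, and the fall was -3.37 ± 0.44 (adjusted p = 0.000106). Among the T libraries replicate 4 was lowest and replicate 3 highest.

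Of the 28 interferon effector genes tested, 27 fell, all by at least 2-fold and all with no overlap between the libraries. The median log2 fold change was -2.99, and the exception was Cmpk2 (-0.30). For 21 of the 28 the interaction passed too. Rsad2, an antiviral radical SAM enzyme, was at 23.9, 22.8, 11.3 and 15 CPM in T and 2.78, 2.63, 1.04 and 1.87 CPM in TCKO, which is near the 2.7 ± 0.727 CPM of WT. Its fall was -3.13 ± 0.33 (adjusted p = 2.58e-05). Irgm1, a GTPase of cell-autonomous immunity induced by interferon gamma, was at 124, 122, 83.3 and 124 CPM in T and 30.8, 29.2, 15.6 and 16.6 CPM in TCKO (-2.30 ± 0.22). Isg15, a ubiquitin-like modifier, went from 33.8, 47.4, 21.4 and 38.4 CPM to 1.69, 3.42, 3.11 and 1.52 CPM (-3.84 ± 0.43, adjusted p = 3.69e-05).

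The brakes of the pathway moved less evenly, with 3 of 7 tested feedback genes lower, a median of -2.18 and none higher. The 3 include Isg15, which was also counted among the effectors. Usp18, which removes ISG15 from proteins and blocks the type I receptor, fell by 3.57 ± 0.52 on the log2 scale, and Socs3, an inhibitor of JAK kinases, by 2.66 ± 0.57. Socs3 held 19.3, 11.4, 11.6 and 5.25 CPM in T and 3.08, 2.66, 1 and 0.741 CPM in TCKO. Of 16 nucleic acid sensors and adaptors, 11 fell, with a median of -1.2. Zbp1, a sensor of Z-form nucleic acid that can start necroptosis, was among the 10 largest falls at no less than 5 CPM under the naming rule given below. It was at 6.5, 12.1, 4.83 and 6.06 CPM in T and 0.304, 0.412, 0.259 and 0.195 CPM in TCKO (-4.62 ± 0.52, adjusted p = 3.61e-05). Ifih1, the cytosolic double-stranded RNA sensor MDA5, fell by 2.19 ± 0.24, and Unc93b1, the chaperone that carries nucleic acid Toll-like receptors to endosomes, by 1.75 ± 0.20. The sensors that did not pass were Mavs (-0.26), Cgas (-0.44), Tbk1 (0.18), Ikbke (-1.10) and Tlr9 (-0.66).

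Ifi211 and Ifi207, members of the interferon-inducible p200 family on chromosome 1 (173896345 to 173913046 and 173723427 to 173741747), were again among the 10 largest falls. Ifi211 was at 13.8, 16, 4.06 and 7.15 CPM in T and at 0.26, 0.222, 0.334 and 0.273 CPM in TCKO, a fall of 5.21 ± 0.59 on the log2 scale (adjusted p = 3.85e-05). Ifi207 fell from 13.1, 15.5, 5.95 and 7.87 CPM to 0.694, 0.729, 0.111 and 0.039 CPM (-4.73 ± 0.61). Without the transgene the knockout gave log2 fold changes of -0.74 and -0.67 that did not pass, and the interaction was -4.47 ± 0.93 (adjusted p = 0.0159) for Ifi211 and -4.06 ± 0.96 (adjusted p = 0.0302) for Ifi207. The interaction of Ifi211 was lost without CKO replicate 4 (adjusted p = 0.0661), and that of Ifi207 without any one of CKO replicates 1, 2 or 4, T replicates 2 or 3 or WT replicate 5 (0.0559 to 0.111). The p200 genes are similar neighbours, so reads may be split among them.

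**Figure D2:**
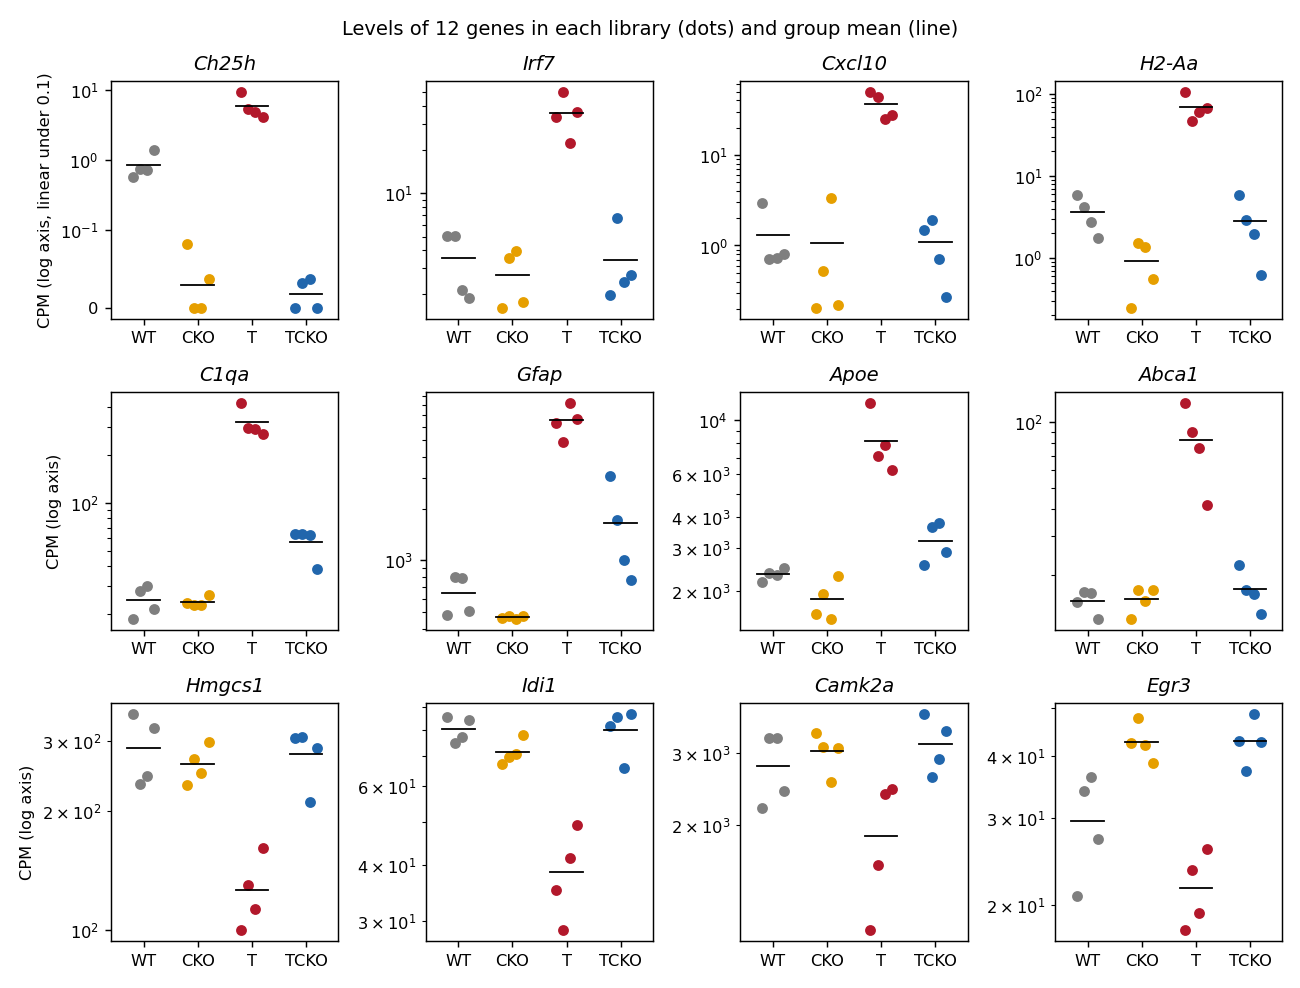
CPM on a log axis (linear under 0.1 for Ch25h) of 12 genes in every library, by genotype, with a dot for each library and a line at the group mean. Irf7, Cxcl10, H2-Aa, C1qa, Gfap, Apoe and Abca1 are high in all T libraries and lower in all TCKO libraries, Hmgcs1 and Idi1 are the reverse, and Camk2a and Egr3 show the smaller rises of neuronal genes.

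The Ifit genes lie beside Ch25h on chromosome 19, so the genes around the deleted locus were looked at separately. Within 1 Mb of Ch25h, by gene midpoints, 7 of 17 tested genes changed and all 7 fell (41.2%, against 12.9% of all genes). The share was 26.9% within 2 Mb, 19% within 5 Mb and 20% within 10 Mb (30 of 150). Without Ch25h itself the shares were 37.5%, 24%, 17.7% and 19.5%. Besides Ch25h, the 6 neighbours were Fas, Lipa, Ifit2, Ifit3, Ifit3b and Ifit1. Ifit1 (34640871 to 34650009) was at 113, 141, 69.9 and 103 CPM in T and 6.12, 13.9, 7.08 and 4.14 CPM in TCKO, a fall of 3.76 ± 0.49 on the log2 scale (adjusted p = 9.59e-05). Ifit3 fell by 3.28 ± 0.40, Ifit3b by 2.95 ± 0.39 and Ifit2 by 2.06 ± 0.18. Ifit1bl1, a further gene of the cluster, was at 0.13 and did not pass. Fas (34290666 to 34327772), a death receptor, was at 31.4, 25.9, 25.9 and 13.1 CPM in T and 6.77, 8.3, 4.37 and 2.97 CPM in TCKO (-2.10 ± 0.30). In mice without the transgene 1 of the 17 genes within 1 Mb, Ch25h, passed in the same comparison. Of the 150 within 10 Mb 2 passed, Ch25h and Golga7b, the latter 7.784 Mb away. Without Ch25h, 23 of 149 had an unadjusted edgeR p below 0.05 there, against 2098 of 18565 over all genes. The gene model Gm34299, 7.938 Mb away, rose in TCKO against T (2.45) and was at 3.41 without the transgene, where it did not pass. Without the transgene Fas was at 0.00, Ifit2 at -0.22, Ifit3b at -0.47, Ifit3 at -0.72 and Ifit1 at -0.92 (log2, adjusted p from 0.475 to 0.998). Ifit3 and Ifit3b are close copies of each other, and their reads may be shared.

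**Figure D3:**
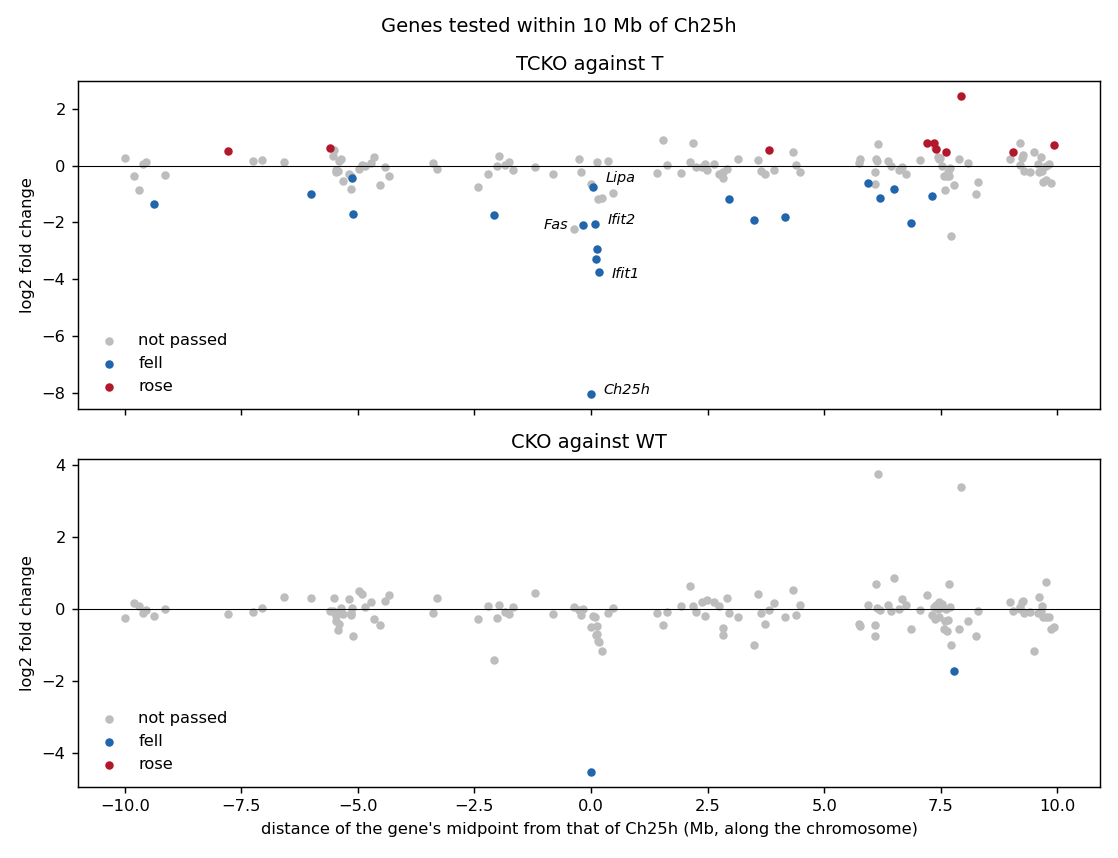
Log2 fold change of the 150 genes tested within 10 Mb of Ch25h, plotted against the distance of the gene's midpoint in Mb, for TCKO against T (upper panel) and CKO against WT (lower panel), with blue for falls, red for rises and grey for genes that did not pass. The falls beside Ch25h in the upper panel, Fas, Lipa and 4 Ifit genes, have no called counterpart in the lower panel. The called genes of the lower panel are Ch25h and Golga7b (at 7.784 Mb).

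Most microglial genes listed were lower in TCKO. Of 24 genes of disease-associated microglia, 21 fell and 0 rose, with a median log2 fold change of -1.80. Axl, a receptor for dying cells, was at 100, 85.2, 84.3 and 83.8 CPM in T and 35.9, 37.3, 29.1 and 29.8 CPM in TCKO, against 25.9 ± 2.69 CPM in WT. Its fall was -1.42 ± 0.14 (adjusted p = 2.04e-05). Cd63, a tetraspanin of lysosomes and exosomes, fell by 1.89 ± 0.22 on the log2 scale. In these bulk libraries, fewer cells of a type and less RNA per cell cannot be told apart.

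Of 15 homeostatic microglia genes 9 fell, 1 rose and 5 did not pass, with a median of -0.74. The share of rises was near that of all genes (4.81%). Csf1r, the receptor that microglia need to survive, was at 256, 201, 227 and 230 CPM in T and 134, 132, 88.7 and 81.5 CPM in TCKO (-1.06 ± 0.15, adjusted p = 0.000175). Tgfbr1, which carries the TGF-beta signal that sets microglial identity, fell by 1.04 ± 0.13, and Olfml3, a secreted microglial protein, by 1.09 ± 0.17. Those that did not pass were P2ry12 (0.20), Tmem119 (-0.33), Siglech (-0.37), Selplg (-0.11) and Mertk (-0.41). Slc2a5, the microglial fructose transporter, went the other way, with 6.34, 4.58, 6.3 and 6.37 CPM in T and 9.89, 9.35, 7.38 and 7.65 CPM in TCKO (0.54 ± 0.16, adjusted p = 0.0412). That call was lost without any one of 10 libraries, namely CKO replicates 1, 2 and 5, T replicates 2, 3 and 4, TCKO replicates 2, 3 and 5 and WT replicate 5 (adjusted p from 0.0501 to 0.133).

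Regulators of the myeloid lineage were lower as well: 11 of 12 tested transcription factors fell, with a median of -1.37, the exception being Cebpb (-0.35). Spi1, which encodes PU.1, was at 13.6, 9.78, 7.93 and 7.68 CPM in T and at 1.47, 3.33, 2.63 and 1.99 CPM in TCKO (-2.04 ± 0.30, adjusted p = 0.000279). Irf8, its partner in microglia and an interferon target itself, went from 67.9, 55.1, 49.8 and 52.4 CPM to 13.5, 13.3, 6.56 and 7.76 CPM (-2.45 ± 0.21). Of 10 tested growth factors and receptors 7 fell, with a median of -1.14. Csf2ra, the GM-CSF receptor alpha chain, was at 21.2, 13.2, 16 and 15.8 CPM in T and at 4.08, 4.59, 6.01 and 5.46 CPM in TCKO (-1.72 ± 0.17). The CSF1R ligand Il34 (0.34), Flt3l (-0.91) and Flt3 (-0.43) did not pass.

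All 16 tested phagocyte receptor and oxidase genes fell, all by at least 2-fold and with no overlap between the groups. Their median was -1.84, and 11 had an interaction. Fcgr1, the high-affinity Fc receptor for IgG, was at 35.6, 35.1, 25.9 and 27.3 CPM in T and 9.41, 7.51, 5.19 and 3.94 CPM in TCKO (-2.25 ± 0.25, adjusted p = 3.57e-05). Fcer1g, the signalling chain it shares with other receptors, fell by 2.06 ± 0.23, and Hvcn1, the proton channel that balances the charge of the oxidase, by 2.18 ± 0.24. Of 21 lysosome genes 15 fell, with a median of -0.88, among them Grn, the progranulin gene of frontotemporal dementia (-1.45 ± 0.14), and the protease gene Ctsh (-1.80 ± 0.22). Atp6v0d2, a proton pump subunit of macrophages and osteoclasts, was at 14.6, 7.33, 13.4 and 2.69 CPM in T and at 0.477, 0.0634, 0 and 0 CPM in TCKO. It was 1 of the 10 largest falls (-6.19 ± 0.86, adjusted p = 0.000351), and the value was -8.41 without TCKO replicate 2. The WT and CKO libraries were at 0 or next to it, with an interaction that could not be estimated (-4.70 ± 54.51).

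Most complement and antigen presentation genes were lower in TCKO. Of 15 complement genes tested 12 fell, with a median of -1.97. C1qa was at 426, 296, 294 and 270 CPM in T and 63.4, 64, 62.8 and 38.2 CPM in TCKO, and in TPM, which are per transcript length, at 524 ± 111 and 98.6 ± 22.6. Of 20 genes of MHC class I presentation 18 fell (median -1.90), and the other two were the general chaperones Calr (0.09) and Canx (0.08). H2-K1, a classical class I chain, was at 194, 237, 186 and 181 CPM in T and 43.8, 69.5, 43.6 and 34.7 CPM in TCKO (-2.06 ± 0.23, adjusted p = 3.69e-05). Tapbp, tapasin of the peptide loading complex, ranged only from 103 to 111 CPM over the T libraries and from 45.1 to 61.3 CPM over TCKO (-1.04 ± 0.10). H2-T23, a nonclassical class I chain, fell by 2.15 ± 0.23. Class I genes are a family of similar sequences, so single members are uncertain.

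Of 11 class II and costimulation genes 8 fell, with a median of -2.06. H2-Aa, the alpha chain of I-A, was at 107, 46.5, 60.7 and 67.4 CPM in T and 5.94, 2.95, 1.96 and 0.624 CPM in TCKO (-4.63 ± 0.55, adjusted p = 5.11e-05, and -5.23 without TCKO replicate 2). H2-Ab1, the beta chain of I-A, and H2-Eb1, the beta chain of I-E, had log2 fold changes of -4.06 ± 0.51 and -4.07 ± 0.45. Per length, the 3 genes were at 88.5 ± 30.9, 89.9 ± 30.4 and 59.7 ± 17.9 TPM in T and at 3.8 ± 2.93, 5.73 ± 3.64 and 3.96 ± 2.07 TPM in TCKO. The class II activator Ciita (-1.38) and the costimulatory genes Cd80 (-1.14) and Cd40 (-1.36) did not pass. For H2-Aa the knockout value without the transgene was -2.05 (adjusted p = 0.309), and the interaction did not pass (-2.57 ± 0.81, adjusted p = 0.0901).

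Of 17 chemokines tested 13 fell and 1 rose, a share of rises near that of all genes (4.81%), with a median of -3.03. Cxcl10, the interferon-induced ligand of CXCR3, was at 49.7, 43.9, 25.2 and 27.3 CPM in T and 1.47, 1.9, 0.704 and 0.273 CPM in TCKO (-5.05 ± 0.74, adjusted p = 0.000241). Its interaction was -4.58 ± 1.04 (adjusted p = 0.0252) and was lost without any one of CKO replicate 4, T replicates 2 or 3 or WT replicate 5 (0.0508 to 0.126). Cxcl13, the B cell attractant, was at 8.47, 29, 7.1 and 8.15 CPM in T, where replicate 3 was far above the rest, and at 0.0867, 0.444, 0.222 and 0 CPM in TCKO. The fall was -6.02 ± 0.88 (adjusted p = 0.000246), -5.30 without T replicate 3 and -6.92 without TCKO replicate 3. Ccl2, the monocyte attractant, fell by 4.02 ± 0.45. Cx3cl1, the fractalkine made by neurons, rose, from 156, 183, 145 and 175 CPM to 236, 197, 228 and 260 CPM (0.48 ± 0.12, adjusted p = 0.0146), a call lost without any one of T replicates 2 or 4 or TCKO replicate 5 (0.051 to 0.0575). Of 7 chemokine receptors tested 3 fell.

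Cytokine and inflammasome genes fell in 10 of 16 tested cases, with a median of -1.58, among them the TNF receptor gene Tnfrsf1a (-1.75 ± 0.24), the inflammasome adaptor gene Pycard (-1.97 ± 0.25) and Casp4, whose product cleaves gasdermin D (-2.67 ± 0.39). Casp4 was at 4.11, 4.1, 5.34 and 3.93 CPM in T and at 1.04, 0.887, 0.334 and 0.468 CPM in TCKO. Tnf was removed by the filter, with 26 reads in T and 4 in TCKO. Of 15 NF-kB subunits and targets 5 fell, with a median of -0.64, and 3 fell without T replicate 2 or without TCKO replicate 5. Those 5 held Icam1 (-2.43 ± 0.27) and Vcam1 (-1.30 ± 0.23), a pair of leukocyte adhesion molecules, while Rela (-0.26), Rel (-0.31) and Nfkbia (-0.66) did not pass.

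**Figure D4:**
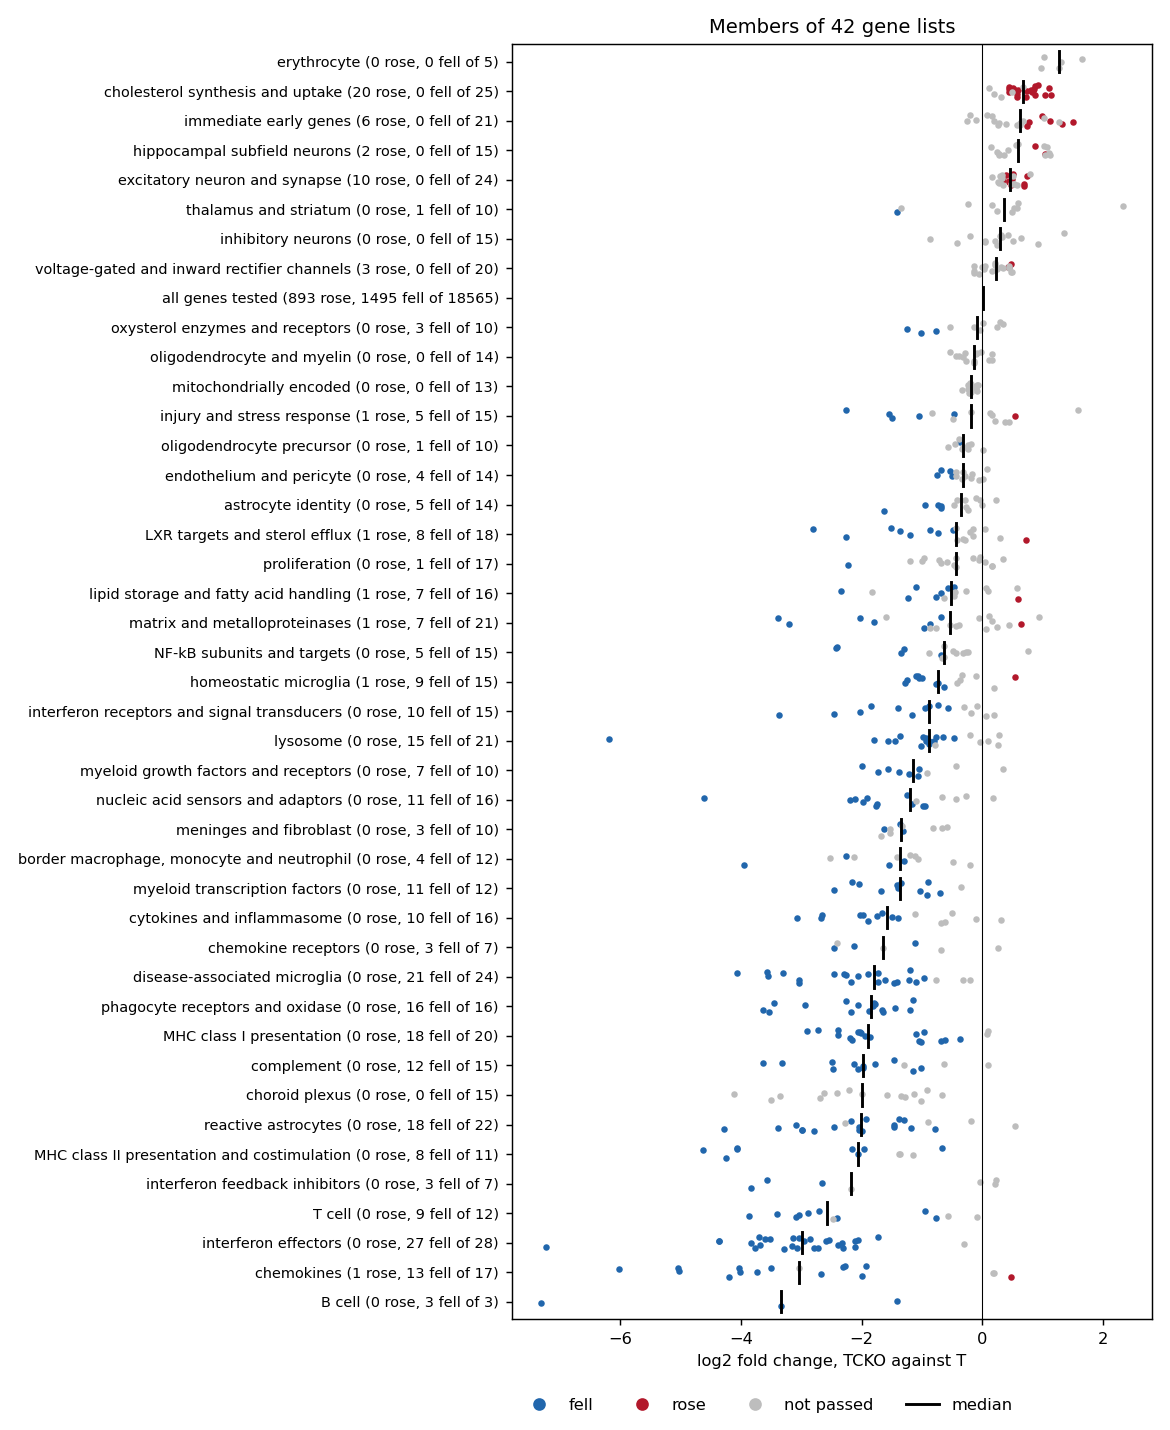
Log2 fold change in TCKO against T of each tested member of 42 gene lists (dots), with blue for falls, red for rises and grey for members that did not pass, and a black bar at the median of the list. Lists are ordered by median around the row of all genes tested (median 0.02): the erythrocyte list, with no called member, is highest (1.27), cholesterol synthesis and uptake follows (0.68), and B cell, chemokine and interferon effector genes are lowest.

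Reactive astrocyte genes were also lower: 18 of 22 fell, 17 of them at least 2-fold, with a median of -2.01. Gfap, the intermediate filament of astrocytes and among the most abundant genes that fell, was at 6330, 4900, 8250 and 6650 CPM in T and 3080, 1710, 1010 and 765 CPM in TCKO. The TCKO libraries were widely spread, and replicates 4 and 5 came nearest to the 643 ± 172 CPM of WT. The fall was -1.99 ± 0.33 (adjusted p = 0.000617). Vim, its partner filament, fell from 779, 630, 603 and 226 CPM to 108, 99.3, 62.3 and 54.2 CPM (-2.79 ± 0.35), and Ggta1, an A1-type astrocyte gene, by 2.18 ± 0.26 on the log2 scale. Astrocyte identity genes moved less, with 5 of 14 lower (8 without TCKO replicate 3) and a median of -0.35. The water channel gene Aqp4 was at 1010, 833, 849 and 607 CPM in T and 362, 313, 203 and 188 CPM in TCKO (-1.63 ± 0.22), whereas the glutamate transporter gene Slc1a2 was at -0.11 and did not pass. Sox9 fell by 0.95 ± 0.16 and Aldh1l1 by 0.74 ± 0.14.

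The most abundant genes that fell included carriers of lipid and lysosomal proteases. Apoe, the main lipid carrier of the brain and an LXR target, was at 11700, 7080, 7890 and 6230 CPM in T and 2560, 3640, 3780 and 2880 CPM in TCKO (-1.36 ± 0.18, adjusted p = 0.000124). Clu, clusterin, fell by 0.86 ± 0.11, Cst3, cystatin C, by 0.62 ± 0.12, Prdx6, an astrocyte peroxiredoxin, by 1.34 ± 0.14, and the tetraspanin gene Cd81 by 0.66 ± 0.10. The cathepsins Ctsd and Ctsb, lysosomal proteases, fell by 1.72 ± 0.20 and 0.97 ± 0.13. For each of these genes the libraries of the 2 groups did not overlap.

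Sterol genes split by role. Of 25 genes of cholesterol synthesis and uptake, 20 rose and 0 fell, with a median of 0.68, 17 with no overlap between libraries and 16 with an interaction. Hmgcs1, which makes HMG-CoA from acetyl units, was at 100, 130, 113 and 161 CPM in T and 304, 307, 210 and 288 CPM in TCKO (1.14 ± 0.17, adjusted p = 0.000241). The TCKO values were near the 288 ± 57.7 CPM of WT, and it was the T libraries that were low. Idi1, isopentenyl diphosphate isomerase, rose from 35.3, 28.7, 41.5 and 49.2 CPM to 81.6, 85.2, 65.9 and 86.6 CPM (1.04 ± 0.13, adjusted p = 8.77e-05). Insig1, the SREBP retention protein and itself an SREBP target, rose by 0.73 ± 0.11. In CKO against WT the value was -0.13 for Hmgcs1, which did not pass, and the interaction was 1.27 ± 0.23 (adjusted p = 0.00717). The 5 that did not pass included Pmvk (0.20), Tm7sf2 (0.49) and Ebp (0.12).

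In the export arm the called genes were mostly lower. Of 18 LXR targets and efflux genes 8 fell and 1 rose, with a median of -0.43, and 5 fell without T replicate 2 or without TCKO replicate 5. The share of rises was near that of all genes (4.81%). Abca1, the cholesterol exporter, was at 122, 89.9, 76 and 41.9 CPM in T and 22.2, 17, 16.4 and 13.3 CPM in TCKO (-2.26 ± 0.25, adjusted p = 3.47e-05). Apoc1, in the Apoe gene cluster, fell by 2.80 ± 0.35 and Npc2, which moves cholesterol out of the lysosome, by 1.2 ± 0.14. Scd1, a desaturase and target of both LXR and SREBP1, rose from 111, 76.3, 101 and 53.8 CPM to 125, 176, 132 and 132 CPM (0.72 ± 0.19, adjusted p = 0.0169), a call lost without T replicate 3 or TCKO replicate 3 (0.0519 to 0.0555) and in the fit of the 8 libraries alone (0.0695). The receptors themselves, Nr1h2 (0.02) and Nr1h3 (-0.14), did not pass.

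Lipid storage and fatty acid genes fell in 7 of 16 tested cases and rose in 1, a share of rises near that of all genes (4.81%), with a median of -0.51. Plin2, a coat protein of lipid droplets, was at 35.1, 29.2, 36 and 27.7 CPM in T and 14.6, 17.3, 10.2 and 12.5 CPM in TCKO (-1.23 ± 0.16, adjusted p = 8.17e-05). Soat1, which esterifies cholesterol for storage and is activated by oxysterols, fell by 0.68 ± 0.12, and Lipa, the lysosomal lipase next to Ch25h on chromosome 19, by 0.77 ± 0.13. Acsl1, a fatty acyl-CoA synthetase, rose by 0.59 ± 0.13 (adjusted p = 0.00781). Of 10 other oxysterol enzymes and receptors 3 fell, 1 without any one of T replicates 2 or 4 or TCKO replicate 5. Gpr183, the receptor of the product of Cyp7b1, was at 15.4, 12.9, 15.8 and 14.8 CPM in T and 9.5, 6.65, 3.93 and 4.92 CPM in TCKO (-1.24 ± 0.25, adjusted p = 0.00379). Hsd3b7, the next enzyme of that route, fell by 0.77 ± 0.20 (adjusted p = 0.0195), and its call was lost without any one of T replicates 2 or 4 or TCKO replicate 5 (0.0562 to 0.0708). Cyp7b1 (-0.04) and Cyp46a1 (0.29), the neuronal cholesterol 24-hydroxylase, did not pass.

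Most neuronal genes did not pass the test. Of 24 excitatory neuron and synapse genes 10 rose and 0 fell, with a median of 0.46, and every member had a positive value. That count depended on single libraries: it was 3, 5 and 4 without T replicates 2, 3 and 4, 6 and 3 without TCKO replicates 2 and 5, 16 without TCKO replicate 3, 0 in the fit of the 8 libraries alone and 5 with the choroid-rich libraries left out. Gria1 and Gria2, subunits of AMPA glutamate receptors, rose by 0.69 ± 0.16 (adjusted p = 0.00781) and 0.70 ± 0.15 (0.00636). Gria2 was at 332, 496, 532 and 680 CPM in T and 932, 760, 756 and 878 CPM in TCKO. In the fit of the 8 libraries alone neither call held (0.0537 and 0.0557). Camk2a, the kinase of long-term potentiation, was at 1110, 1600, 2380 and 2440 CPM in T and 3720, 2620, 2900 and 3380 CPM in TCKO. Its rise of 0.74 ± 0.21 (adjusted p = 0.0271) did not hold without any one of T replicates 2 or 3 or TCKO replicates 2 or 5 (0.0715 to 0.0844).

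Of the other neuronal lists, 3 of 20 ion channel genes rose (median 0.23). This was 0 without T replicate 2, without TCKO replicate 2, without TCKO replicate 4 and in the fit of the 8 libraries alone, 1 without CKO replicate 1, without T replicate 4, without TCKO replicate 5 and without the choroid-rich libraries, and 6 without TCKO replicate 3. None of 15 inhibitory neuron genes passed (median 0.29). Among 15 markers of hippocampal subfields 2 rose (median 0.60). Wfs1, a marker of CA1 pyramidal cells, was at 47.2, 52.4, 54.1 and 41.7 CPM in T and 97.3, 80, 108 and 117 CPM in TCKO (1.04 ± 0.23, adjusted p = 0.00779). WT ran from 38 to 99.1 CPM over its own libraries and so overlapped both transgenic groups. The 8 most abundant genes that rose, under the naming rule given below, were Camk2a, Snrpn, Tspan7, Snap25, Ywhaz, Aldoa, Calm2 and Gnb1. Snrpn and Tspan7 rose by 0.55 ± 0.10 (adjusted p = 0.00126) and 0.47 ± 0.09 (0.00247), and neither call was lost by leaving out any 1 library. The other rises were smaller than that of Camk2a and overlapped between the groups: 0.50 ± 0.16 for Snap25 of vesicle release, 0.46 ± 0.14 for Calm2, a calmodulin gene, 0.37 ± 0.12 for the glycolytic Aldoa, 0.35 ± 0.11 for Ywhaz and 0.33 ± 0.09 for Gnb1. Their adjusted p ran from 0.0217 to 0.0443. Gnb1 lost its call without any one of T replicates 2, 3 or 4 or TCKO replicates 2 or 3 (0.0561 to 0.075). Calm2 lost it without any one of 9 libraries, namely CKO replicates 1, 2, 4 and 5, T replicates 2 and 3, TCKO replicates 2 and 5 and WT replicate 2 (0.0514 to 0.151). Aldoa lost it without any one of 10, namely CKO replicates 1, 2, 4 and 5, T replicates 2, 3 and 4 and TCKO replicates 2, 3 and 5 (0.0537 to 0.146). Snap25 lost it without any one of 13, all but T replicate 5 and TCKO replicates 3 and 4 (0.0523 to 0.153), and Ywhaz without any one of 14, all but T replicate 5 and TCKO replicate 4 (0.0508 to 0.153).

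Among 21 immediate early genes, which neurons switch on with activity, 6 rose and 0 fell, with a median of 0.62. The count was 2 and 3 without T replicates 3 and 4 and 3 without TCKO replicate 4. Egr3 was at 17.8, 23.6, 19.3 and 26 CPM in T and 43, 37.4, 48.7 and 42.8 CPM in TCKO (0.99 ± 0.16, adjusted p = 0.000558). Egr1 went from 44.4, 42.3, 21.9 and 39.6 CPM to 70.1, 88, 99.3 and 66.4 CPM (1.13 ± 0.28, adjusted p = 0.0146). Nr4a1, an orphan nuclear receptor, rose from 40.5, 24.3, 21.5 and 38.6 CPM to 71.1, 84.4, 94.5 and 61 CPM (1.32 ± 0.35, adjusted p = 0.019), and its call was lost without T replicate 3 or without T replicate 4 (0.0611 to 0.0615). Fos (0.08), Arc (1.27) and Npas4 (1.03) did not pass. In CKO against WT the values were 0.53 for Egr3, 0.64 for Egr1 and 0.54 for Nr4a1, which did not pass, and none of these 3 had an interaction.

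Among called genes with at least 5 CPM, no overlap between the groups and a gene class kept by the naming rule below, Lbhd2 had the largest rise. It was at 0.382, 0.586, 0.896 and 0.312 CPM in T and 1.21, 42.6, 21.5 and 1.72 CPM in TCKO (4.94 ± 1.36, adjusted p = 0.0246). TCKO replicates 3 and 4 carried that difference, and 1 WT library, replicate 2, was at 25.5 CPM. The call was lost without any one of T replicates 2, 3 or 4 or TCKO replicate 3 (0.0522 to 0.0829), and the value was 3.88 without the last. Its interaction of 8.44 ± 1.90 (adjusted p = 0.0237) was lost without any one of CKO replicates 1, 2, 4 or 5, T replicates 2 or 3 or WT replicate 2 (0.0509 to 0.0603). Lzts1, a postsynaptic leucine zipper protein, was at 65.6, 153, 153 and 206 CPM in T and 316, 787, 328 and 271 CPM in TCKO (1.56 ± 0.35, adjusted p = 0.00763, interaction 2.34 ± 0.49, adjusted p = 0.0168). Cpne5, a copine, rose by 1.24 ± 0.32 (adjusted p = 0.0184), a call lost without any one of T replicates 2 or 4 or TCKO replicate 3 (0.0559 to 0.0718).

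Of 21 matrix genes 7 fell (4 without T replicate 2) and 1 rose, a share of rises like that of all genes (4.81%), with a median of -0.54. Timp1, an inhibitor of metalloproteinases made by reactive astrocytes, was at 12.5, 10.2, 11.4 and 8.24 CPM in T and 2.65, 0.76, 0.63 and 0.078 CPM in TCKO (-3.38 ± 0.67, adjusted p = 0.00318, and -4.40 without TCKO replicate 2). Mmp12, the macrophage elastase, had a log2 fold change of -3.21 ± 0.57, which was -3.85 without TCKO replicate 2. Ncan, the neurocan of perineuronal matrix, rose from 263, 314, 273 and 380 CPM to 580, 484, 413 and 458 CPM (0.65 ± 0.12, adjusted p = 0.00127). Tgm1, a transglutaminase that was nearly unread without the transgene, was among the 10 largest falls, from 9.33, 9.09, 13.5 and 3.97 CPM to 1.13, 0.475, 0.111 and 0 CPM (-4.40 ± 0.71, adjusted p = 0.000583, and -5.42 without TCKO replicate 2). Of 15 injury and stress genes 5 fell and 1 rose, a share of rises near that of all genes (4.81%), with a median of -0.19. The falls numbered 2 without T replicate 2 or TCKO replicate 5, and 3 without T replicate 3 or TCKO replicate 2. Nupr1 and Cdkn1a, the stress regulator and the p21 cell cycle inhibitor, fell by 2.26 ± 0.26 and 1.55 ± 0.31.

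Markers of other cells that the dissected tissue could hold were read beside these lists, and their part in the results was not tested. Of 12 tested T cell genes 9 fell, with a median of -2.58 and a list score (mean log2 CPM relative to WT) of 1.90 to 2.72 in T and -0.45 to 0.62 in TCKO. The count was 5 without T replicate 3 and 5 without TCKO replicate 5. Cd3d, part of the T cell receptor complex, was at 1.62, 2.02, 0.544 and 0.905 CPM in T and 0.0867, 0.127, 0.0741 and 0.039 CPM in TCKO (-3.86 ± 0.67). Nkg7, of cytotoxic cells, fell by 3.04 ± 0.57. All 3 tested B cell genes fell, of 6 listed, with scores from 0.61 to 4.84 in T and from -0.54 to 0.03 in TCKO. In CKO against WT the median log2 fold change was -2.22 for B cell genes and -0.04 for T cell genes. No gene of either list passed there, and none had an interaction. Igkc, the kappa light chain, was at 3.88, 163, 9.34 and 0.656 CPM in T and 0.13, 0.0951, 0.408 and 0.468 CPM in TCKO. Its fall of 7.32 ± 1.51 on the log2 scale (adjusted p = 0.0041) rested on T replicate 3 for its size, with a log2 fold change of -4.07 without it, and limma voom did not call it (adjusted p = 0.277).

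Of 12 border macrophage, monocyte and neutrophil genes 4 fell, with scores of 0.60 to 1.30 in T and -0.68 to -0.18 in TCKO, and 2 fell without any one of T replicate 4 or TCKO replicates 2 or 5. Ms4a7, of border macrophages and some activated microglia, was at 19.2, 12.7, 27.5 and 4.59 CPM in T and 2, 1.39, 0.556 and 0.195 CPM in TCKO (-3.95 ± 0.62, adjusted p = 0.000426). Of 10 meningeal and fibroblast genes 3 fell, 1 without any one of T replicates 2 or 4 or TCKO replicates 2 or 5, and 5 without T replicate 5 or without CKO replicate 2. Of 14 endothelial and pericyte genes 4 fell, with a median of -0.32. That was 1 without any one of T replicate 2 or TCKO replicates 2 or 5, and 2 without T replicate 3 or 4. Ly6c1 fell by 0.53 ± 0.12. None of the 14 oligodendrocyte genes passed (median -0.14, scores of 0.46 to 1.63 in T and 0.93 to 1.19 in TCKO). Of 10 precursor genes 1 fell, Ptprz1 (-0.36 ± 0.09, adjusted p = 0.0195), a call lost without T replicate 2 or TCKO replicate 5 (0.0686 to 0.0764). Of 17 tested proliferation genes 1 fell, the mitotic kinase gene Cdk1 (-2.22 ± 0.47), and no erythrocyte gene passed. The shares of falls among precursor and proliferation genes were near that of all genes (8.05%).

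The TCKO libraries differed among themselves in the glial genes. The score of disease-associated microglia was 3.37, 2.93, 3 and 2.7 in T and 1.59, 1.28, 0.49 and 0.03 in TCKO, so that TCKO replicate 5 was inside the range of WT (-0.26 to 0.17) and replicates 2 and 3 stood between WT and T. For reactive astrocyte genes the values were 1.19, 0.88, 0.11 and 0.00 in TCKO against 2.91, 2.48, 2.82 and 2.05 in T. For interferon effectors TCKO stood at -0.05, 0.62, -0.27 and -0.54, of which only replicate 3 was outside the range of WT (-0.56 to 0.42), against 2.5 to 3.3 in T. The score of cholesterol synthesis and uptake was -0.83, -0.71, -0.92 and -0.58 in T and -0.13, -0.05, -0.24 and 0.06 in TCKO. For excitatory neurons the values were -0.56, -0.30, -0.47 and -0.09 in T and 0.15, -0.15, 0.18 and 0.22 in TCKO, where T replicate 5 lay above TCKO replicate 3.

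**Figure D5:**
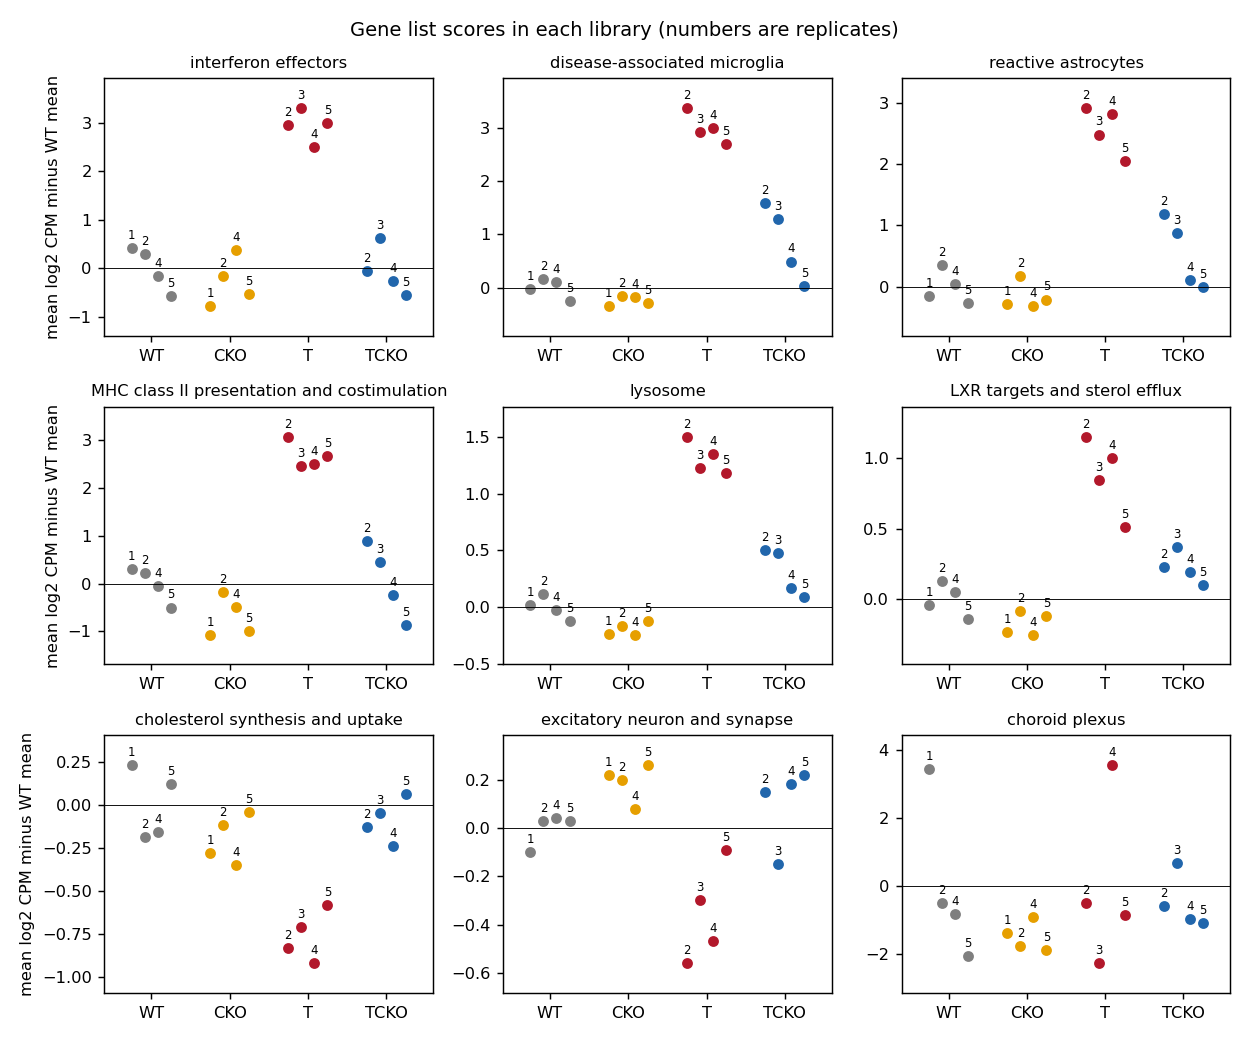
Mean log2 CPM of the tested members of 9 gene lists in each library, relative to the WT mean (vertical axis), by genotype, with the replicate number above each dot. Microglial and astrocyte scores of TCKO range from an intermediate level in replicates 2 and 3 to that of WT in replicate 5, interferon effectors lie far below T in all 4, and choroid plexus genes stand out in WT replicate 1 (3.44) and T replicate 4 (3.56).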

How the data were processed

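RNA from 16 hippocampal libraries was sequenced from an oligo-dT primed kit, per the labels' protocols. The authors deposited estimated counts per gene and TPM for each library. The submitters' processing notes name bcl2fastq, STAR 2.5.1a, featureCounts 1.4.6-p5 of Subread and GRCm38, without their roles, and the tool that made the deposited values is not stated there. Estimated counts were rounded. After 287 repeat lines were merged with their identical first lines, 55487 genes remained, and 18565 passed edgeR's filter on low counts. One edgeR 4.0.16 quasi-likelihood model with TMM scaling was fitted over all 16 libraries (R 4.3.3), with Benjamini-Hochberg adjustment over all tested genes and a threshold of 0.05; "rose" and "fell" mean past it. Fold changes are log2 ± SE. The SE was derived as the absolute log2 fold change over the square root of the test's F statistic. It is approximate, above all for genes with few reads. CPM and list scores were computed from the counts, and TPM were used as deposited by the authors, only for levels per length. Single library measures were compared by exact two-sided permutation over 70 assignments. Promoter motifs were searched in RefSeq windows on GRCm38.p6, and coordinates of genes are those of GENCODE on GRCm38. The fitting code was tested on simulated data. The simulation changed 67 genes 1.5-fold, 67 genes 2-fold and 66 genes 4-fold, and 18228 genes were tested. There it recovered 19.4% of genes changed 1.5-fold, 50.7% of those changed 2-fold and 78.8% of those changed 4-fold, with 3 false calls. Far fewer genes changed there than the 2388 called in TCKO against T, so these shares do not measure the power of that comparison. A gene that did not pass may still have changed.

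The text names Ch25h, Mapt and Prnp, the 10 largest falls and rises with at least 5 CPM and no overlap, up to 3 members of each list with the smallest p, called members that moved against their list, the 8 most abundant called genes in each direction, and called genes within 2 Mb of Ch25h; not all of them are printed. Under this naming rule, unnamed gene models, pseudogenes, and ribosomal protein and mitochondrial genes were left out of the largest changes and the most abundant genes. Members that did not pass were named after their values were seen. The members and the 43 lists were chosen with earlier results of these data known. Lists share some members, such as Isg15, Irf8 and Csf1r, which were counted in each. Alternatives were DESeq2 1.42.0, limma 3.58.1 voom, other scalings and filters, a minimum fold of 1.2, thinning to 15064258 reads, the replicate number as a block, subsets of libraries and each library left out. Same-numbered T and TCKO libraries did not consistently deviate together (correlations from -0.142 to 0.169), so the numbers were not taken as pairs. Between WT and CKO the correlations ran from -0.051 to 0.272 for the same number and from -0.273 to 0.174 for different numbers. Some results are not reported here.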

Additional observations from a re-analysis of the deposited data

Results flagged for a closer look

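In groups of 4, a library was singled out where its gap to the nearest other library, over the range of the group, passed Dixon's 95% critical value. Of 310 groups of 4 tested, 20 had such a library, and chance at 1 in 20 would give 15.5. Among interferon genes, Irf7 was at 6.72 CPM in TCKO replicate 3 (others 1.95 to 2.69) and Irgm1 at 83.3 CPM in T replicate 4 (others 122 to 124). Among chemokine, complement and microglial genes, Cxcl13 was at 29 CPM in T replicate 3 (others 7.1 to 8.47), C1qa at 426 CPM in T replicate 2 (others 270 to 296) and at 38.2 CPM in TCKO replicate 5 (others 62.8 to 64). Slc2a5 was at 4.58 CPM in T replicate 3, Hvcn1 at 9.11 CPM in TCKO replicate 2, Axl at 100 CPM in T replicate 2 and Atp6v0d2 at 0.477 CPM in TCKO replicate 2. Pycard was at 39.2 CPM in T replicate 2, and Casp4 and Vcam1 were at 5.34 and 136 CPM in T replicate 4. Scd1 and Lzts1 were at 176 and 787 CPM in TCKO replicate 3, where the other libraries reached 132 and 328 CPM. Igkc was at 163 CPM in T replicate 3 against 0.656 to 9.34 CPM in the other T libraries.

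T replicate 3 also had the lowest mitochondrial share of its group (8.07%, others 8.73 to 8.81%) and the lowest total (26247257 reads). The NF-kB score was 0.88 in T replicate 5, the oligodendrocyte and myelin score 1.19 in TCKO replicate 3, and the proliferation score 0.78 in TCKO replicate 2.

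The effect of Ch25h loss differed with the transgene for 584 genes by the interaction term. Among the genes named for the largest changes, the log2 interaction was -4.58 for Cxcl10, -4.47 for Ifi211, -4.06 for Ifi207, 1.27 for Hmgcs1, 2.34 for Lzts1 and 8.44 for Lbhd2. Those of Cxcl10, Ifi211, Ifi207 and Lbhd2 were lost when single libraries were left out.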

How the results depend on the processing

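The count of changed genes in TCKO against T (2388) was 1178 with a minimum fold of 1.2, 1354 in the fit of the 8 libraries alone, 1591 with the choroid-rich libraries left out and 3041 by DESeq2, and ranged from 1294 to 3278 with each library left out. Genes higher in TCKO (893) numbered 156 with the minimum fold, 477 with no filter on low counts, 202 in the 8 libraries alone and 404 with the choroid-rich libraries left out, and ranged from 282 to 1483 with each library left out. Genes lower in TCKO (1495) ranged from 1012 to 1795. In CKO against WT (2) DESeq2 called 110, limma voom 1, the 8 libraries alone 1, thinned reads 1 and the fit without the choroid-rich libraries 8, and the count ranged from 0 to 7 with each library left out. The interaction (584) gave 1250 by DESeq2, 315 with the minimum fold and 378 without the choroid-rich libraries, and ranged from 298 to 1266. It could not be fitted with the 8 libraries alone. With the replicate block the counts were 2262 changed (812 higher, 1450 lower), 0 in CKO against WT and 683 for the interaction. The labels do not say whether libraries of the same number belong together. The response element was in 7 effector genes on the given strand. The mitochondrial difference ranged from -1.05 to -0.808 percentage points; without a TCKO library it was -0.826, -0.901, -0.95 or -0.839 with exact p = 0.0571. The difference in total reads ranged from -5.11 to -2.67 M. No result reversed. Over 28 alternatives, 89 of 104 named genes that fell and 11 of 36 that rose kept every call. The cause of these shifts was not tested. Depth limits genes with few reads, such as the interferon ligands.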
